A study of Mus musculus with 8 samples.

Results

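The genes described here are 10 core factors and markers of pluripotency: Pou5f1, Sox2, Nanog, Sall4, Utf1, Dppa2, Dppa4, Dppa5a, Tdgf1 and Gdf3. They were taken by symbol from a table of read counts that lists 36255 genes, and all 10 were in it. Poly(A) RNA was sequenced from mouse cells in 8 libraries, 2 in each of 4 groups. The groups were embryoid bodies at day 2 (EBd2) labelled as Skp1a knockout (KO), EBd2 with floxed Skp1a (fl/fl), embryonic stem (ES) cells labelled KO, and fl/fl ES cells. ES cells are cultured cells of the early embryo that can form all its tissues, and embryoid bodies are aggregates in which they begin to differentiate. All cells carried Skp1a alleles that were floxed or, in the KO groups, labelled as deleted. The sources used here do not give the Cre, the number of clones or the time since deletion, nor what the lots 1, 2 and 12 that number the libraries are. A tissue field in the labels calls every KO library ES cells and every fl/fl library embryoid bodies, and the groups follow the titles instead. The question behind the comparisons is how the loss of SKP1, the adaptor that joins F-box proteins to SCF ubiquitin ligases, alters expression at both stages.

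OCT4 (the product of Pou5f1), SOX2 and NANOG are transcription factors that bind many enhancers together, maintain their own and each other's expression, and hold ES cells in the pluripotent state. OCT4 and SOX2 are kept as cells pass from the naive state of the preimplantation epiblast to the primed state of the implanted epiblast, whereas NANOG is known to dip on the way and to return in the posterior epiblast. The other genes are used as markers of pluripotent cells: SALL4 is a zinc finger partner of the core factors, UTF1 and the DPPA2 and DPPA4 pair are chromatin proteins, DPPA5A is an RNA-binding protein, TDGF1 (Cripto) is a co-receptor for Nodal and GDF3 is a ligand of the same family.

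In GRCm38 (GENCODE vM21), Pou5f1 lies at chr17:35506018-35510772, Sox2 at chr3:34650405-34652461, Nanog at chr6:122707489-122714633 and Utf1 at chr7:139943789-139945112, all on the + strand. Sall4 lies at chr2:168748332-168767943 on the - strand. Dppa4 (chr16:48283733-48294237) and Dppa2 (chr16:48303908-48319723) are neighbours on the + strand. Dppa5a (chr9:78367052-78368177), Tdgf1 (chr9:110939603-110946158) and Gdf3 (chr6:122605403-122610087) are on the - strand. All 10 are protein-coding.

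Promoter sequences were at hand for 5 of the 10 genes, and those of Nanog, Pou5f1, Sox2 and Utf1 are printed because these genes parted most clearly in KO embryoid bodies. Each window runs from 250 bases before to 50 after a RefSeq start (GRCm38.p6, 5′ to 3′ on the + strand), and capitals mark matches on either strand to 5 motifs. These were the octamer core ATGCAAA, bound by OCT4, the joint SOX and octamer element CNTTGTNATGCAAA, which contains that core, the GC box GGGCGG, the nuclear receptor core AGGTCA and the orphan receptor core TCAAGG, and the last pair can overlap each other.
Nanog, chr6:122707239-122707538: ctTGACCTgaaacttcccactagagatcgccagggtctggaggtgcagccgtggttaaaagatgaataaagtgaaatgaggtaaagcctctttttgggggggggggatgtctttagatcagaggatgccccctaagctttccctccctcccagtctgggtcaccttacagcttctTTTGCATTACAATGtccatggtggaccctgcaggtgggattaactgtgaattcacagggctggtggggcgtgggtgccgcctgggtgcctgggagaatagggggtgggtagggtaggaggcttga
Pou5f1, chr17:35505782-35506081: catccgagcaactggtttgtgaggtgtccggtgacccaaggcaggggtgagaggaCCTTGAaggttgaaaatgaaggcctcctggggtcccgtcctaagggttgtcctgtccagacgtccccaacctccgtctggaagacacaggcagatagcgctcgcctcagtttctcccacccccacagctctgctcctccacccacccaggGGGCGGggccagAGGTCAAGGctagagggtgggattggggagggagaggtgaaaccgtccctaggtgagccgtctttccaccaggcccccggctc
Sox2, chr3:34649745-34650044: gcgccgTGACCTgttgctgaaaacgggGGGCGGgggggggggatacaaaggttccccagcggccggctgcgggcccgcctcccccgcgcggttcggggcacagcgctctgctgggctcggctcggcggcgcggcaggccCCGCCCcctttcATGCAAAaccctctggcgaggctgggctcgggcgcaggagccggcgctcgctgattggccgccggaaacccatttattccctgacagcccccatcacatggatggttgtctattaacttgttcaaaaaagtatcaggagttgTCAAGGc
Utf1, chr7:139943606-139943905: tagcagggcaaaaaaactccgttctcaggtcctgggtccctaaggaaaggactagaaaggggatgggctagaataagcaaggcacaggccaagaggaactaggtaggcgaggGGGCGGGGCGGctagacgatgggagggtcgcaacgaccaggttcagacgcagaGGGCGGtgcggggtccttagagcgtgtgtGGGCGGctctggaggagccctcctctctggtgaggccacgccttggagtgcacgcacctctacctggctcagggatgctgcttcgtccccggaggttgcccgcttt

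The Nanog window holds the joint element at positions -75 to -62 from this start. That element was found in 3 of 32851 promoter windows of the same length (0.00913%), of which the other 2 belong to a second Nanog start and to Astn1. The window of the second Nanog start (chr6:122707315-122707614) overlaps the first, and both hold the same site. The octamer core was also found in the Sox2 window, and 4.63% of all windows hold it. The Pou5f1 window printed has overlapping nuclear and orphan receptor cores at -33 to -25, found singly in 16.3% and 14.4% of windows. A second Pou5f1 window (chr17:35508557-35508856), not printed, had no match to the 5 motifs. The Utf1 window has 4 GC boxes, a motif found in 35.7% of windows, and none of the other motifs. Matches are descriptions of these letters only, and no binding was measured here. OCT4 and SOX2 are known to act on Utf1 and Pou5f1 through enhancers that lie outside these windows.

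Total counts were 9260644 and 10055667 for KO EBd2, against 7858452 and 9133497 for fl/fl EBd2. For KO ES cells they were 22459935 and 21559558, against 23343471 and 21545868 for fl/fl ES cells. Mitochondrial genes took 3.15% and 3.24% of counts in KO EBd2, against 2.7% and 2.28% for fl/fl EBd2. The share was 2.43% and 2.42% in KO ES cells, against 1.76% and 1.73% in fl/fl ES cells, and its part in the results was not tested. Each of the 10 genes had at least 476 counts in every library, and all 10 passed the filter on low counts. The lowest count was that of Gdf3, where counting error weighs most. Skp1a itself was only partly lower: it had 285.8 and 289.6 CPM (counts scaled to a common library total) in KO EBd2, against 401.4 and 389.1 CPM in fl/fl EBd2, and 368.9 and 361.3 CPM in KO ES cells, against 420.2 and 430.3 CPM in fl/fl ES cells. Of 17 formative and primed genes, which rise as ES cells leave the naive state, 12 were higher and 2 lower in KO EBd2 than in KO ES cells, and 17 were higher in fl/fl EBd2 than in fl/fl ES cells. Of all genes tested, 31.7% were higher and 33.1% lower in the KO comparison, and 28.9% higher and 30.1% lower in that of fl/fl cells. Counts over a whole gene do not show whether exons were removed, so genotypes are given as labelled. Levels below are CPM scaled by TMM factors, log2 fold changes carry standard errors, n is 2 libraries a group, and a gene was called at an adjusted p under 0.05 in edgeR's quasi-likelihood test over 16542 genes. Since nothing says that libraries came from separate cultures, these p values measure library-to-library spread, which may be technical.

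Genes were compared with each other per kilobase of exon, with all annotated exons of a gene merged. That length can exceed that of the transcripts present, and the order of the genes depends on it. On this scale Dppa5a was the most abundant of the 10 in every group. Its level was 1875.5 ± 43.3 CPM per kb in KO EBd2, 1448.0 ± 79.7 in fl/fl EBd2, 3599.5 ± 154.7 in KO ES cells and 3672.5 ± 124.3 in fl/fl ES cells (SD, n = 2). Gdf3 was the least abundant in every group, between 19.6 and 26.2 CPM per kb on average. The order between them changed with genotype in embryoid bodies. Utf1 averaged 127.7 ± 6.13 CPM per kb in KO EBd2, below Pou5f1, Tdgf1 and Nanog and overlapping Sox2 at 132.0 ± 4.01, whereas in fl/fl EBd2 it averaged 382.0 ± 3.76, above all but Dppa5a and next to Pou5f1 at 370.8 ± 3.27. Nanog averaged 166.5 ± 11.7 CPM per kb in KO EBd2, above Sox2 and Utf1, and 98.2 ± 3.31 in fl/fl EBd2, below both. In fl/fl EBd2 the libraries of Tdgf1 and Sox2 overlapped as well. In ES cells Tdgf1 and Pou5f1 followed Dppa5a in both genotypes, and Nanog averaged 239.8 ± 6.12 CPM per kb in KO, above Sox2 and Utf1, and 226.3 ± 4.73 in fl/fl, below both.

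**Figure D1:**
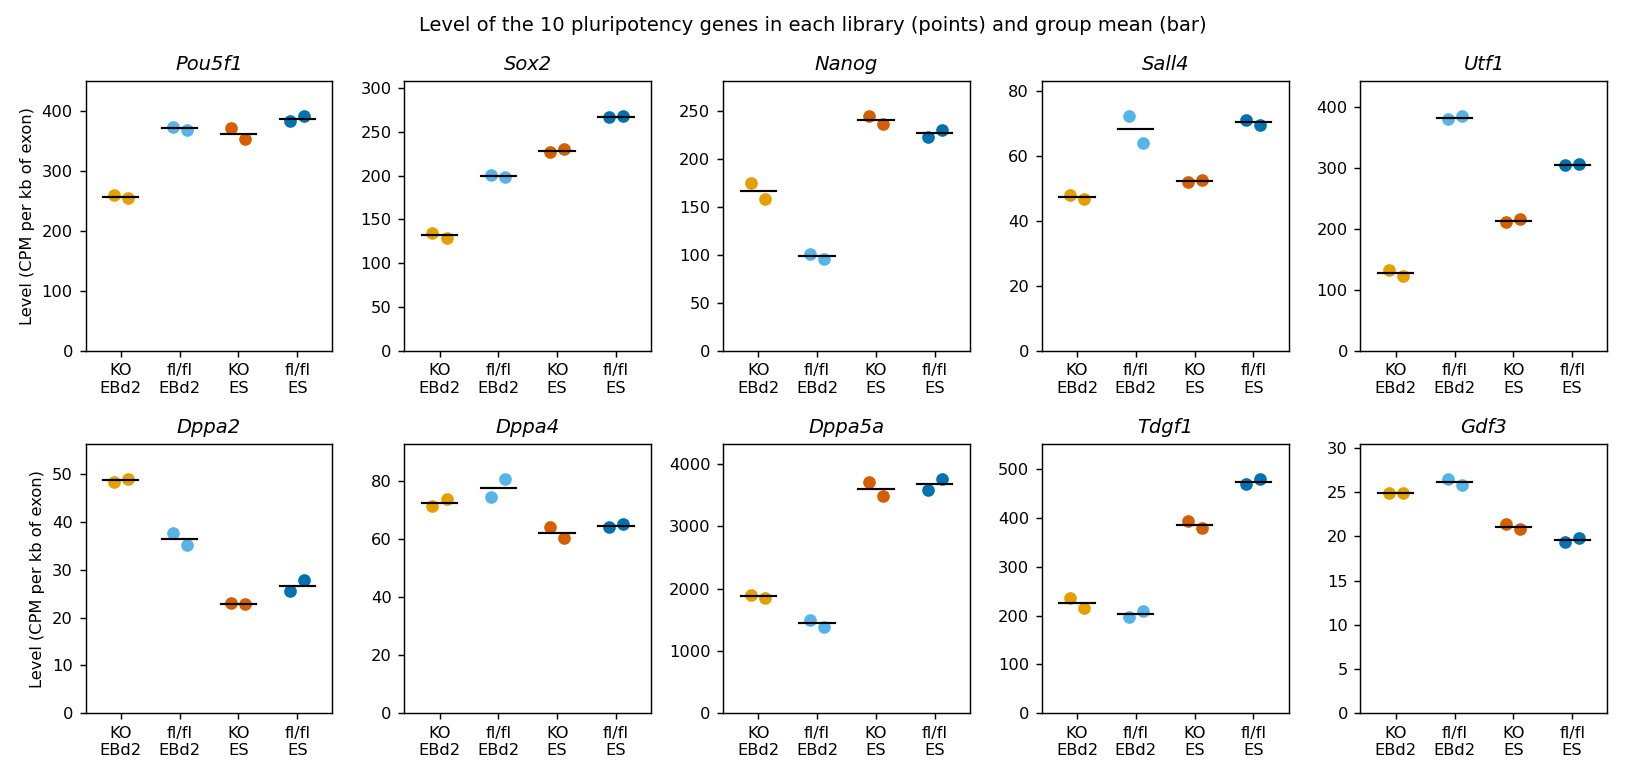
Level of each gene in CPM per kb of exon (vertical axes, from 0) in KO EBd2, fl/fl EBd2, KO ES cells and fl/fl ES cells; points are the 2 libraries of a group and bars their mean. Utf1 is lowest and Dppa2 highest in KO EBd2, and Nanog is lowest in fl/fl EBd2.

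In embryoid bodies the 10 genes did not move together. Pou5f1, Sox2, Sall4 and Utf1 were lower in KO than in fl/fl EBd2, Nanog, Dppa2, Dppa5a and Tdgf1 were higher, and Dppa4 and Gdf3 did not pass the test. Thus 8 of 10 were called, 4 in each direction, where 62.2% of all genes tested were called, 30.7% higher and 31.5% lower. The share called was therefore not far from that of the other genes, and the median fold change of the 10, -0.08 on the log2 scale, was near the 0.00 of all genes.

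Among the transcription factors, Pou5f1 had 583.3 and 572.7 CPM in KO EBd2, against 838.8 and 828.4 CPM in fl/fl EBd2 (log2 fold change -0.53 ± 0.04, adjusted p = 1.98e-07). Sox2 had 277.3 and 265.6 CPM in KO EBd2, against 413.6 and 408.4 CPM in fl/fl EBd2 (-0.60 ± 0.04, adjusted p = 6.08e-08). Sall4 had 265.1 and 259.1 CPM in KO EBd2, against 399.8 and 354.6 CPM in fl/fl EBd2 (-0.52 ± 0.05, adjusted p = 3.27e-06). For these 3 genes both KO libraries lay below both fl/fl libraries, and the fold of KO over fl/fl lay between 0.66 and 0.696. Nanog went the other way, with 391.9 and 354.9 CPM in KO EBd2, against 225.3 and 214.9 CPM in fl/fl EBd2 (0.76 ± 0.05, adjusted p = 1.69e-07). It was 1.7-fold higher in KO, and no library of the groups overlapped.

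The chromatin genes differed widely from each other. Utf1, known for keeping ES cell chromatin in a state that permits differentiation, had 162.0 and 151.3 CPM in KO EBd2, against 465.4 and 471.9 CPM in fl/fl EBd2 (-1.58 ± 0.04, adjusted p = 1.4e-10). This was the largest difference among the 10 genes, and it ranked 2342 by absolute size among the genes tested. Dppa2 had 118.3 and 119.8 CPM in KO EBd2, against 92.16 and 86.19 CPM in fl/fl EBd2 (0.42 ± 0.05, adjusted p = 3.77e-05). Its product works as a dimer with DPPA4, yet Dppa4 had 118.5 and 122.9 CPM in KO EBd2, against 123.7 and 134.2 CPM in fl/fl EBd2 (-0.10 ± 0.05, adjusted p = 0.119). The interval of the Dppa4 difference ran from -0.21 to 0.02 on the log2 scale. Without the fl/fl EBd2 library of lot 1, Dppa4 was called lower (-0.16, adjusted p = 0.0422).

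Of the remaining markers, Dppa5a had 1179.9 and 1142.0 CPM in KO EBd2, against 931.2 and 861.5 CPM in fl/fl EBd2 (0.37 ± 0.05, adjusted p = 3.17e-05). Tdgf1 had 617.5 and 563.9 CPM in KO EBd2, against 514.2 and 546.8 CPM in fl/fl EBd2 (0.15 ± 0.05, adjusted p = 0.0169). The groups did not overlap, but the Tdgf1 call was lost without the KO EBd2 library of lot 1 (0.08, adjusted p = 0.19) or the fl/fl EBd2 library of lot 1 (0.11, adjusted p = 0.143). Gdf3 had 60.26 and 60.37 CPM in KO EBd2, against 64.23 and 62.66 CPM in fl/fl EBd2 (-0.07 ± 0.05, interval -0.19 to 0.04, adjusted p = 0.298). Scaled by library size only, which shifted the median of all genes by 0.23, Gdf3 was called higher instead (0.16, adjusted p = 0.0202), while the directions of the 8 called genes stayed as given.

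Marker lists of other cell types also differed between these embryoid bodies, where 30.7% of all genes tested were called higher and 31.5% lower in KO. The summed level of 12 primitive and visceral endoderm markers was 1155.9 and 1143.6 CPM in KO EBd2, against 477.4 and 522.1 CPM in fl/fl EBd2, and 11 of 11 tested were called higher. Most of that sum came from Cubn (541.3 CPM in KO EBd2, against 286.6 CPM in fl/fl EBd2) and Dab2 (291.2 against 133.1 CPM). The 10 primitive streak and mesendoderm markers summed to 163.6 and 169.6 CPM in KO EBd2, against 28.7 and 28 CPM in fl/fl EBd2, with 5 of 9 called higher. The 10 trophectoderm markers summed to 746.8 and 730.7 CPM in KO EBd2, against 289.3 and 282.0 CPM in fl/fl EBd2, with 7 of 10 called higher and 1 lower. Most of this sum came from Krt8 (347.3 CPM in KO EBd2, against 72.4 CPM in fl/fl EBd2) and Krt18 (244.3 against 93.3 CPM). The 1 called lower was Tfap2c (58.2 against 100.9 CPM). The 10 fibroblast markers, as of feeder cells, summed to 212.5 and 194.3 CPM in KO EBd2, against 54.6 and 55.5 CPM in fl/fl EBd2, with 7 of 9 called higher. The 10 neuroectoderm markers, a lineage that keeps Sox2, summed to 110.3 and 104.8 CPM in KO EBd2, against 136.2 and 136.8 CPM in fl/fl EBd2, with 2 of 7 called higher and 4 lower, and Hes5 had 0 counts in both KO EBd2 libraries. The stricter filter, which tests fewer genes, left 3 mesendoderm markers called higher and 2 neuroectoderm markers called lower. No listed marker was at 0 in all libraries. The part of these cells in the differences of the 10 genes was not tested, and in bulk RNA fewer cells of a type and less RNA per cell cannot be told apart.

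In ES cells Sox2, Sall4, Utf1, Dppa2 and Tdgf1 were lower in KO than in fl/fl, and none of the 10 was called higher, though with library sizes only 2 were. Thus 5 of 10 were called, where 23.7% of all genes tested were called, 10.9% higher and 12.8% lower. The median fold change of the 10 was -0.16, against 0.00 for all genes. No member passed a test for a change beyond 1.5-fold, which called 17 genes in all.

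Utf1 had the largest difference again, with 258.7 and 264.1 CPM in KO ES cells, against 372.8 and 375.2 CPM in fl/fl ES cells (-0.52 ± 0.03, adjusted p = 8.57e-06). Sall4 had 287.7 and 291.6 CPM in KO ES cells, against 393.9 and 385.2 CPM in fl/fl ES cells (-0.43 ± 0.05, adjusted p = 0.00012). Sox2 had 466.7 and 473.1 CPM in KO ES cells, against 549.4 and 550.9 CPM in fl/fl ES cells (-0.23 ± 0.03, adjusted p = 0.000568). In each of these genes the spread within a group was far below the gap between groups.

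Tdgf1 was lower as well, at 1030.6 and 991.1 CPM in KO ES cells, against 1227.1 and 1256.3 CPM in fl/fl ES cells (-0.30 ± 0.05, adjusted p = 0.000964). Dppa2 had 56.23 and 55.94 CPM in KO ES cells, against 62.44 and 68.1 CPM in fl/fl ES cells (-0.22 ± 0.05, adjusted p = 0.00856). The Dppa2 call was lost when KO lot 1 (adjusted p = 0.052), KO lot 12 (0.0514) or fl/fl lot 2 (0.114) of the ES cells was left out, and with lots as a block (0.101), at log2 values between -0.22 and -0.15.

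Pou5f1, Nanog, Dppa4, Dppa5a and Gdf3 did not pass in ES cells. Pou5f1 had 834.3 and 793.6 CPM in KO ES cells, against 859.8 and 879.2 CPM in fl/fl ES cells (-0.10 ± 0.03, interval -0.17 to -0.02), and DESeq2 called it lower (adjusted p = 0.0209). Nanog had 547.3 and 527.9 CPM in KO ES cells, against 499.8 and 514.8 CPM in fl/fl ES cells (0.08 ± 0.04, interval -0.01 to 0.18), and Gdf3 had 51.86 and 50.47 CPM in KO ES cells, against 46.85 and 47.92 CPM in fl/fl ES cells (0.11 ± 0.04, interval 0.02 to 0.21). Both were called higher with library sizes only (adjusted p = 0.0208 for Nanog and 0.011 for Gdf3), and Gdf3 also under the stricter filter on low counts (0.0291). Dppa5a had 2295.8 and 2160.4 CPM in KO ES cells, against 2218.9 and 2327.7 CPM in fl/fl ES cells (-0.03 ± 0.05, interval -0.13 to 0.07), and its groups overlapped. Dppa4 had 106.6 and 100.3 CPM in KO ES cells, against 106.8 and 108.1 CPM in fl/fl ES cells (-0.05 ± 0.04, interval -0.15 to 0.04).

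Markers of other cell types moved less here, where 10.9% of all genes tested were called higher and 12.8% lower in KO. Fibroblast markers summed to 809.9 and 892.9 CPM in KO ES cells, against 768.7 and 720.3 CPM in fl/fl ES cells, with 3 of 9 called higher, and trophectoderm markers to 294.3 and 307.2 CPM in KO ES cells, against 274.4 and 272.9 CPM in fl/fl ES cells, with 4 of 10 called higher and 1 lower. Endoderm markers summed to 89 and 89.1 CPM in KO ES cells, against 104.7 and 103.1 CPM in fl/fl ES cells, with 3 of 11 called lower. Without KO lot 12 or fl/fl lot 2, or with lots as a block, 1 fibroblast marker was called, and with no filter 5 were. Without KO lot 1 or fl/fl lot 2, 1 endoderm marker was called. The part of these cells in the differences above was not tested.

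**Figure D2:**
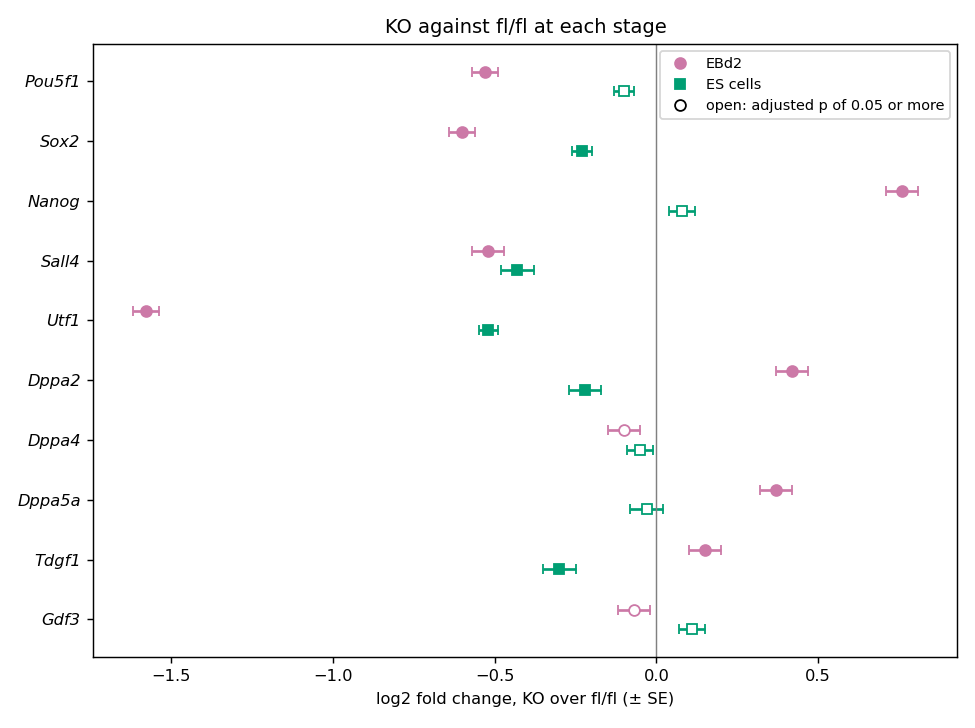
log2 fold change of KO over fl/fl (horizontal axis, ± SE, 2 libraries a group) for each gene in EBd2 (pink circles) and in ES cells (green squares); open symbols did not pass. In EBd2 the values run from -1.58 for Utf1 to 0.76 for Nanog, and in ES cells from -0.52 to 0.11.

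The difference between the stages was tested as the interaction of genotype and stage, that is, the KO effect in EBd2 minus that in ES cells. It was called for 8 of the 10 genes, 4 positive and 4 negative, where 48.0% of all genes tested were called, 22.4% positive and 25.7% negative. Dppa2 and Tdgf1 changed sides: each was lower in KO ES cells and higher in KO EBd2, with interactions of 0.64 ± 0.07 (adjusted p = 2.89e-05) and 0.45 ± 0.07 (adjusted p = 0.00019). As given above, though, the Dppa2 call in ES cells and the Tdgf1 call in EBd2 were lost when certain single libraries were left out. Utf1 was lower at both stages and more so in EBd2 (-1.07 ± 0.05, adjusted p = 6.1e-08), the only interaction that passed a test beyond 1.5-fold. Pou5f1 (-0.43 ± 0.05) and Sox2 (-0.37 ± 0.05) also had a lower KO level in EBd2 than their ES cell difference gives, and Nanog (0.68 ± 0.07) and Dppa5a (0.40 ± 0.07) a higher one. Sall4 was lower in KO at both stages with no interaction called (-0.10 ± 0.07, interval -0.24 to 0.05, adjusted p = 0.271), and for Dppa4 the interaction was -0.04 ± 0.07 (adjusted p = 0.626). The Gdf3 interaction (-0.18 ± 0.07, adjusted p = 0.0427) was lost in every alternative run, with adjusted p values of 0.0507 or more.

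Differentiation to day 2 was compared in each genotype, and both comparisons share their libraries with those above. In KO cells all 10 genes were called, 7 lower and 3 higher in EBd2 than in ES cells, where 64.8% of all genes tested were called, 31.7% higher and 33.1% lower. In fl/fl cells 8 of 10 were called, 4 in each direction, where 59.0% were, 28.9% higher and 30.1% lower. The median of the 10 was -0.51 in KO and -0.05 in fl/fl, against -0.00 and -0.02 for all genes. Fibroblast markers summed to 212.5 and 194.3 CPM in KO EBd2, against 809.9 and 892.9 CPM in KO ES cells. In fl/fl EBd2 they summed to 54.6 and 55.5 CPM, against 768.7 and 720.3 CPM in fl/fl ES cells. Of 9 tested, 6 were called lower and 0 higher in KO EBd2 than in KO ES cells, and 7 lower and 1 higher in fl/fl. The part of such cells in the stage differences was not tested.

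Pou5f1 changed by -0.49 ± 0.04 in KO cells (adjusted p = 2.99e-07) and by -0.06 ± 0.04 in fl/fl cells (interval -0.14 to 0.02, adjusted p = 0.16). Its KO EBd2 level was 66.5% of that of fl/fl ES cells, and its fl/fl EBd2 level 95.9%. Sox2 fell in both, by 0.79 ± 0.03 on the log2 scale in KO cells and by 0.42 ± 0.03 in fl/fl cells. Nanog fell in both too, but less in KO cells, where it changed by -0.53 ± 0.05, than in fl/fl cells, where it changed by -1.21 ± 0.05 and EBd2 kept 43.4% of the ES cell level. Sall4 moved little, by -0.14 ± 0.05 in KO cells (adjusted p = 0.0211) and by -0.05 ± 0.05 in fl/fl cells (adjusted p = 0.408). The Sall4 call in KO cells was lost when KO lot 2 of EBd2 (adjusted p = 0.102) or KO lot 12 of ES cells (0.0783) was left out, under the stricter filter (0.0504) and with library sizes only (0.957). In fl/fl cells Sall4 was called lower without the EBd2 library of lot 1 (-0.14, adjusted p = 0.0165).

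Utf1 had opposite changes: it fell in KO cells (-0.74 ± 0.04, adjusted p = 2.47e-08) and rose in fl/fl cells (0.33 ± 0.04, adjusted p = 1.13e-05). Dppa2 rose in both, by 1.09 ± 0.05 in KO cells and by 0.45 ± 0.05 in fl/fl cells, and Dppa4 rose by 0.22 ± 0.05 and 0.27 ± 0.05 in the same order. Gdf3 rose by 0.24 ± 0.05 in KO cells and by 0.42 ± 0.05 in fl/fl cells. Dppa5a and Tdgf1 fell strongly in both genotypes. Dppa5a changed by -0.94 ± 0.05 in KO cells and -1.34 ± 0.05 in fl/fl cells, and Tdgf1 by -0.78 ± 0.05 in KO cells and -1.23 ± 0.05 in fl/fl cells.

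**Figure D3:**
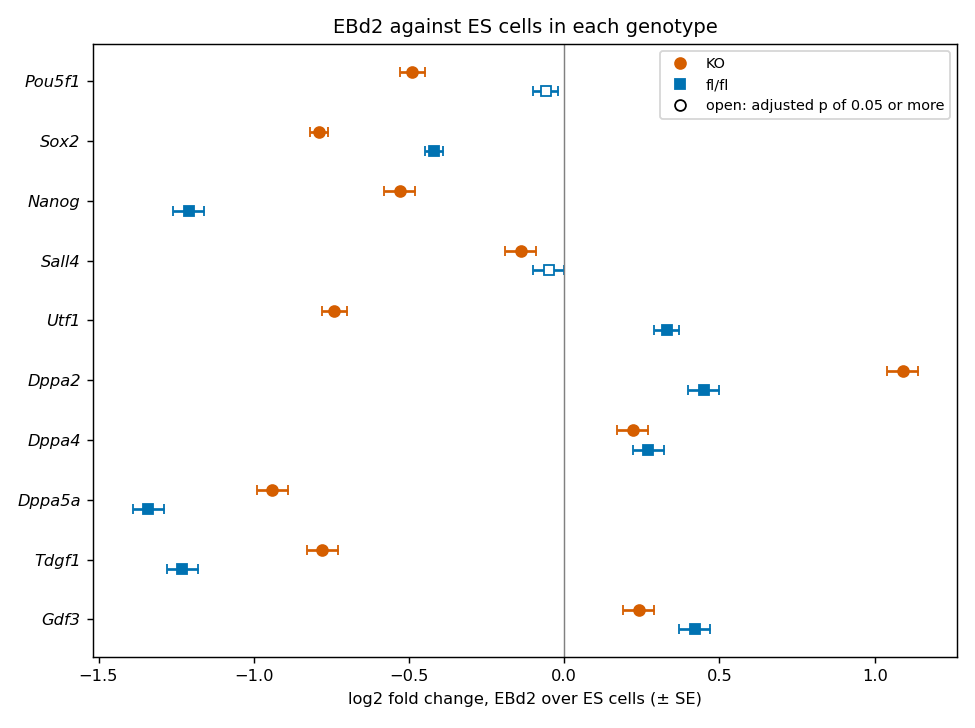
log2 fold change of EBd2 over ES cells (horizontal axis, ± SE, 2 libraries a group) for each gene in KO cells (orange circles) and fl/fl cells (blue squares); open symbols did not pass. Utf1 lies on opposite sides of 0, at -0.74 in KO and 0.33 in fl/fl cells.

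A ratio of counts within a library does not depend on how libraries are scaled, so each gene was also set against Pou5f1. Since Pou5f1 was itself lower in KO than in fl/fl EBd2 (-0.53 ± 0.04), these ratios carry its difference too. There were 0.672 and 0.62 Nanog counts for each Pou5f1 count in KO EBd2, against 0.269 and 0.259 in fl/fl EBd2. In KO ES cells the ratio was 0.656 and 0.665, within the range of the KO EBd2 libraries, and in fl/fl ES cells 0.581 and 0.586. Relative to Pou5f1, Nanog was thus lowest in the fl/fl EBd2 libraries, which lay apart from all others. For Utf1 the ratio was 0.278 and 0.264 in KO EBd2, against 0.555 and 0.57 in fl/fl EBd2, with 0.31 and 0.333 in KO ES cells, against 0.434 and 0.427 in fl/fl ES cells. The Sall4 ratio was 0.455 and 0.452 in KO EBd2, inside the 0.477 and 0.428 of fl/fl EBd2, and lower only in KO ES cells at 0.345 and 0.367, against 0.458 and 0.438 in fl/fl ES cells. The Sall4 level was nonetheless lower in KO EBd2 (-0.52 ± 0.05), much as that of Pou5f1. Sox2 had 0.475 and 0.464 counts for each of Pou5f1 in KO EBd2 and 0.493 in both fl/fl EBd2 libraries, a far smaller gap than in its level. Tdgf1 had 1.06 and 0.985 in KO EBd2, against 0.613 and 0.66 in fl/fl EBd2, a far larger gap than in its level (0.15 ± 0.05). These ratios were not tested.

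**Figure D4:**
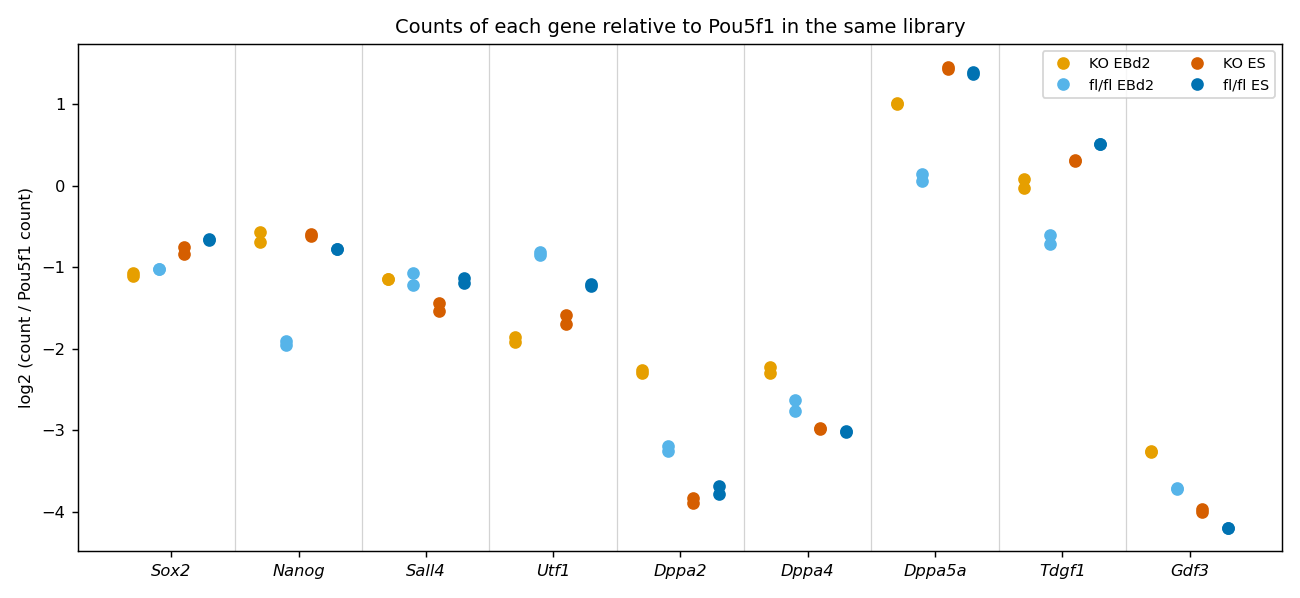
log2 of each gene's count over the Pou5f1 count of the same library (vertical axis), with the 2 libraries of each group as points, in the order KO EBd2, fl/fl EBd2, KO ES and fl/fl ES within each gene. Nanog in fl/fl EBd2 lies at -1.90 and -1.95, and all its other libraries lie between -0.78 and -0.57.

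The shape of the profile over the 4 groups was compared between genes by the root-mean-square difference of centred mean log2 CPM. Among the 10, Dppa4 and Gdf3 were nearest (0.0731), followed by Dppa5a with Tdgf1 (0.141), Pou5f1 with Sall4 (0.148), Pou5f1 with Sox2 (0.173) and Nanog with Dppa5a (0.198). Dppa2 and Dppa5a were farthest apart (0.957), followed by Nanog and Utf1 (0.916). Dppa4 and Dppa2, which lie 9670 bases apart on chromosome 16 with no protein-coding gene between them, differed by 0.324, and Gdf3 and Nanog, 97401 bases apart on chromosome 6, differed by 0.666. Dppa5a and Tdgf1 share chromosome 9 at a distance of 32571425 bases. In the whole table, the nearest of 9550 candidate genes were Rpl31-ps8 and Zcchc2 for Pou5f1 (0.00738 and 0.0126), Cnot1 and Pigg for Sox2 (0.0226 and 0.0228), Rhbdd1 and Mtm1 for Nanog (0.0423 and 0.0514), and Myo10 and Cep350 for Sall4 (0.011 and 0.0295). For Utf1 they were Ankrd35 and Ftl1 (0.0611 and 0.0618), for Dppa2 Med22 and Slc25a44 (0.0246 and 0.0286), and for Dppa4 Sik3 and Aimp2 (0.0114 and 0.0127). For Dppa5a they were Tmem38b and Itga3 (0.0182 and 0.0369), for Tdgf1 Slc25a36 and Ap2m1-ps (0.0209 and 0.03), and for Gdf3 Gspt2 and Wdr77 (0.0121 and 0.0172). With 4 group means a profile has only 3 free values, and the candidates are many.

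The genes that work with these factors were described from lists. Beside their counts, 30.7% of all genes tested were higher and 31.5% lower in KO than in fl/fl EBd2. In ES cells these shares were 10.9% and 12.8%. Of 27 partner proteins of OCT4, SOX2, NANOG or SALL4, all tested, 22 were lower and 3 higher in KO than in fl/fl EBd2, with a median of -0.56. Sall1, a relative of Sall4 that also joins the NuRD repressor, was lower at 67.8 CPM in KO EBd2, against 250.4 CPM in fl/fl EBd2 (-1.88 ± 0.05), and so was L1td1, an RNA-binding protein of pluripotent cells (-1.13 ± 0.03). The transcription factor Arid3a was among those higher (0.33 ± 0.06). With library sizes only the split was 18 lower and 5 higher. In ES cells 16 partners were lower and 0 higher in KO, with a median of -0.14, among them the poly(ADP-ribose) polymerase Parp1 (-0.27 ± 0.03). That count became 10 lower and 2 higher with library sizes only.

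Nodal signalling, in which TDGF1 and GDF3 act, showed no common direction. Of 20 tested genes 6 were higher and 9 lower in KO than in fl/fl EBd2, where 30.7% of all genes were higher and 31.5% lower. The number higher was thus near the share of all genes. With library sizes only, 9 of the 20 were higher and 7 lower. The ligand Nodal was at 163.4 CPM in KO EBd2, against 66.6 CPM in fl/fl EBd2 (1.29 ± 0.05), and the feedback inhibitor Pmepa1 was also higher (1.55 ± 0.08). The secreted Nodal inhibitor Lefty1 was at 97.1 CPM in KO EBd2, against 296.3 CPM in fl/fl EBd2 (-1.61 ± 0.06), and the SMAD co-repressor Skil was lower (-1.39 ± 0.05). In ES cells 6 were higher and 6 lower in KO, where 10.9% of all genes were higher and 12.8% lower. The 12 calls became 5 without fl/fl lot 2 of the ES cells, 6 without fl/fl lot 1 or KO lot 12, and 7 without KO lot 1 or with lots as a block. Lefty2 (0.61 ± 0.06) and Pmepa1 (0.31 ± 0.06) were higher there, and the inhibitory SMAD gene Smad7 (-0.32 ± 0.05) and the receptor Acvr2b (-0.29 ± 0.05) lower.

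Of 13 textbook targets of OCT4 with SOX2 outside the 10 genes, 3 were higher and 9 lower in KO than in fl/fl EBd2, and 3 higher and 5 lower in KO than in fl/fl ES cells. The shares of all genes were 30.7% higher and 31.5% lower in EBd2, and 10.9% and 12.8% in ES cells. With library sizes only the EBd2 split of the targets was 4 higher and 6 lower. The ES cell split was 0 higher and 5 lower without KO lot 12, and 1 higher and 4 lower without fl/fl lot 1. The secreted phosphoprotein Spp1 was higher in KO EBd2 (1.96 ± 0.05), as was the threonine dehydrogenase Tdh (0.55 ± 0.04), and the repressor Rest was lower (-1.08 ± 0.04). In ES cells Fgf4, the growth factor that prepares ES cells for differentiation, was lower in KO (-0.38 ± 0.03), and so was Rest (-0.41 ± 0.03), while Spp1 (0.19 ± 0.05) and the nuclear receptor gene Nr6a1 (0.17 ± 0.04) were higher.

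State markers parted in KO embryoid bodies, where 30.7% of all genes tested were called higher and 31.5% lower than in fl/fl. Of 16 naive genes 9 were higher and 5 lower in KO than in fl/fl EBd2 (median 0.89). Those with the smallest p were Tbx3 (2.31 ± 0.05) and Zfp57 (1.62 ± 0.05), while Fgf4 (-0.73 ± 0.04) and Esrrb (-0.68 ± 0.05) were lower. Of 17 formative and primed genes 2 were higher and 13 lower (median -1.46), among them the DNA methyltransferase Dnmt3b (-2.45 ± 0.05) and Zic5 (-3.11 ± 0.08), against rises of the cadherin Cdh2 (1.43 ± 0.11) and of Lef1 (0.49 ± 0.16). In ES cells 1 naive gene was higher and 10 lower, and 4 formative and primed genes were higher and 5 lower. Of all genes, 10.9% were higher and 12.8% lower there. Klf4 (-0.51 ± 0.04) and Fgf4 had the smallest p of the naive genes called lower, and Zfp57 was the 1 called higher (0.18 ± 0.04). Without lot 2 of the fl/fl ES cells 0 naive genes were higher and 7 lower, and when either fl/fl library was left out, 2 formative and primed genes were higher and 2 lower.

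**Figure D5:**
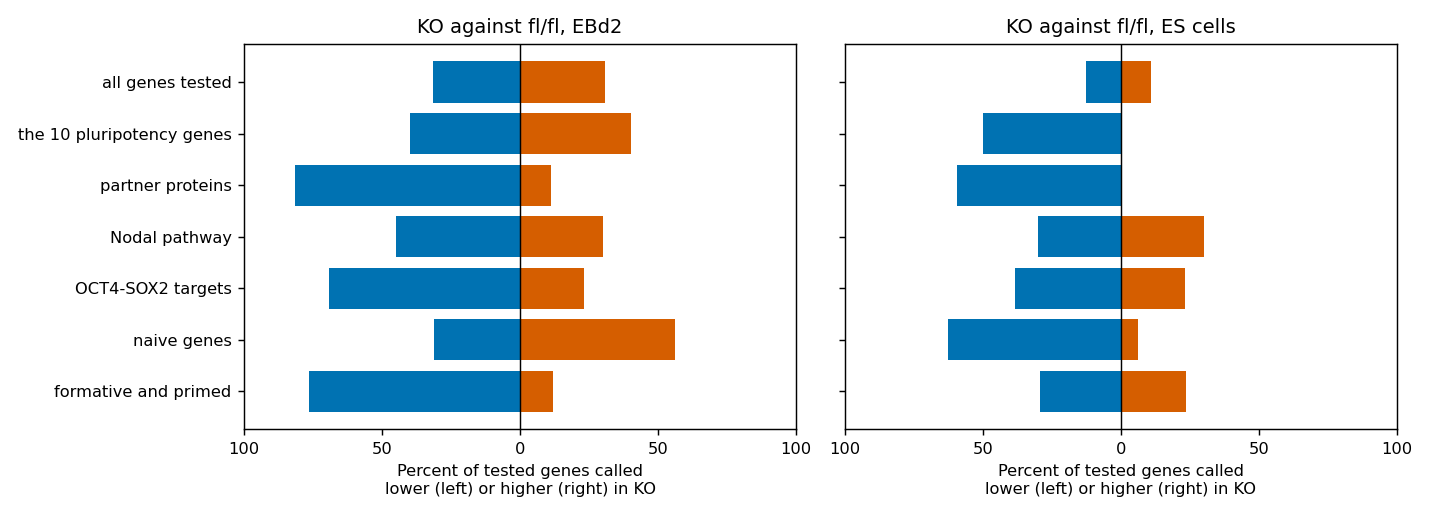
Percent of the tested genes of each list that were called lower (left, blue) or higher (right, orange) in KO than in fl/fl, in EBd2 (left panel) and in ES cells (right panel), with all 16542 genes tested at the top. The 10 pluripotency genes were called in both directions in EBd2 and only lower in ES cells.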

How the data were processed

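RNA was purified on spin columns, selected with poly(A) beads and sequenced, per the labels. The authors deposited raw read counts per gene symbol, whole numbers with no normalization, 1 column a library. The submitters' processing notes name the trimmer Trim Galore 0.6.7 and, as builds, GRCm38 with mm10. The sources used here do not give the aligner, counter, annotation, strand setting or treatment of reads that match several places.

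The test across genes used edgeR 4.0.16 (R 4.3.3): filterByExpr with the 4 groups left 16542 genes, libraries were scaled by TMM, and 4 group means were fitted to all 8 libraries. The common biological coefficient of variation was 3.4%. The quasi-likelihood test (two-sided) was adjusted by Benjamini-Hochberg over all genes tested, with calls at 0.05. Standard errors are the fold change over the root of F, and intervals are at 95%. The fit was tested on simulated data with known changes. Far fewer genes changed there than were called here, as many up as down, so it does not test the scaling between libraries. The 10 genes and 11 other lists were chosen with earlier results of these data known. The genes named were all 10, from each other list up to 2 called in each direction with the smallest p, and the 2 nearest profiles (at least 10 CPM on average, prior count 2), and 1 gene that this rule names is not reported here. Alternatives were RLE scaling, library sizes only, no filter, at least 10 CPM in 2 libraries, DESeq2 1.42.0, each library left out, lots as a block, a test against 1.5-fold and fits of the 4 libraries compared.

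Exon lengths and positions come from GENCODE vM21 (GRCm38), where 34715 symbols matched once, and promoters from RefSeq. No member shared its counts with another gene. Dppa5b and Dppa5c had 137 counts each over all libraries, beside 234325 for Dppa5a, and the pseudogenes Tdgf1-ps1 and Nanog-ps1 had 34 and 3. Exons of Pou5f1 and Sall4 overlap those of antisense or opposite-strand genes by 317 and 526 bases, and without a known strand setting reads from these cannot be told apart.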

Additional observations from a re-analysis of the deposited data

Results flagged for a closer look

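For 8 of the 10 genes the difference between KO and fl/fl itself differed between EBd2 and ES cells, by the interaction test of the same edgeR fit with adjustment over all genes. The KO effect in EBd2 minus that in ES cells, in log2, was -1.07 ± 0.05 for Utf1 (-1.58 in EBd2 and -0.52 in ES cells), -0.43 ± 0.05 for Pou5f1 (-0.53 and -0.10) and -0.37 ± 0.05 for Sox2 (-0.60 and -0.23). It was 0.68 ± 0.07 for Nanog (0.76 in EBd2 and 0.08 in ES cells), 0.64 ± 0.07 for Dppa2 (0.42 and -0.22), 0.45 ± 0.07 for Tdgf1 (0.15 and -0.30) and 0.40 ± 0.07 for Dppa5a (0.37 and -0.03). For Gdf3 it was -0.18 ± 0.07 (-0.07 in EBd2 and 0.11 in ES cells), a value that passed in no alternative. Groups of 2 libraries are too small for a check of single libraries that stand apart.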

How the results depend on the processing

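Of 790 recomputed fold changes of the 10 genes, 716 kept their direction and their side of the threshold. The test against 1.5-fold, which asks for a larger change, ended 28 calls and left 2 in KO against fl/fl in EBd2 (Utf1 and Nanog), 0 in ES cells, 5 for stage in KO, 3 for stage in fl/fl and 1 for the interaction. Leaving out 1 library gave 7 to 8 calls in EBd2, 4 to 5 in ES cells, 9 to 10 and 8 to 9 for stage in KO and fl/fl, and 7 to 8 for the interaction. The other losses and gains stand beside their results, except Pou5f1 for stage in fl/fl, called with no filter (-0.09, adjusted p = 0.0473), and the Sall4 interaction, called without the fl/fl EBd2 library of lot 12 (-0.18, adjusted p = 0.0175). Some directions turned. With library sizes only they were those of Dppa4 (0.13) and Gdf3 (0.16) in KO against fl/fl EBd2, Dppa4 (0.02) and Dppa5a (0.04) in ES cells, Sall4 for stage in KO (0.00), and the interactions of Sall4 (0.06) and Dppa4 (0.11). With at least 10 CPM in 2 libraries they were Gdf3 in EBd2 (0.01) and the Dppa4 interaction (0.01), and with lots as a block Dppa5a in ES cells (0.03). With 1 library left out they were Dppa5a in ES cells (-0.07 to 0.01, above 0 without KO lot 12 or fl/fl lot 2), Sall4 for stage in fl/fl (-0.14 to 0.03, above 0 without lot 12 of EBd2) and the Dppa4 interaction (-0.11 to 0.02, turned without KO lot 1 of ES cells, at 0.00, or fl/fl lot 12 of EBd2). The cause was not tested.

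Over all genes tested, deviations of lot 1 from the group means correlated between -0.02 and 0.02 across groups. With 2 libraries a group, such a deviation also holds that of the other lot. These values therefore do not show whether lots of the same number share an origin. With the lot block 8 of the 10 genes were called in EBd2, 4 in ES cells and 7 for the interaction, and besides Dppa2 in ES cells and the Gdf3 interaction (-0.24, adjusted p = 0.106) it ended no call. Over all genes it moved the ES cell count to 2236, against 3926 without it, and leaving out 1 ES cell library moved it to between 1909 and 2233. The test against 1.5-fold called 3910 genes in EBd2, against 10289 in the test of any change, 3733 against 10721 for stage in KO, 3043 against 9763 for stage in fl/fl and 2331 against 7948 for the interaction. With library sizes only, which shifted the median of all genes by 0.07 in ES cells, 0.14 for stage in KO and 0.15 for the interaction, 7075 genes were higher and 3345 lower in KO EBd2, against 5072 and 5217 with TMM. The same split was 2819 and 1089 in ES cells, against 1806 and 2120 with TMM, 6665 and 4106 for stage in KO, against 5248 and 5473, and 5008 and 2992 for the interaction, against 3704 and 4244. EBd2 libraries, with at most 10055667 counts, limit genes of low level more than these 10.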

Other observations

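Relatives of the 10 genes by family moved in both directions. Of 17 tested, 4 were higher and 10 lower in KO than in fl/fl EBd2, where 30.7% of all genes were higher and 31.5% lower. The POU factor Pou3f1 was at 18.7 CPM in KO EBd2, against 130.4 CPM in fl/fl EBd2 (-2.80 ± 0.08, adjusted p = 4.53e-10). Pou2f3 was higher in KO EBd2 (1.22 ± 0.22, adjusted p = 0.000518). Within the SALL family, Sall1 was lower (-1.88 ± 0.05, adjusted p = 1.22e-10) and Sall3 higher (2.04 ± 0.23, adjusted p = 1.24e-05), at 14.4 CPM in KO EBd2, against 3.48 CPM in fl/fl EBd2. In ES cells 2 relatives were higher and 1 lower in KO, namely Sall2 (0.65 ± 0.12) and Sox4 (0.24 ± 0.06) higher and Sall1 lower (-0.24 ± 0.04). Of all genes, 10.9% were higher and 12.8% lower in KO ES cells. From ES cells to EBd2, Sall2 rose in both genotypes, by 1.55 ± 0.10 in KO cells and by 3.79 ± 0.10 in fl/fl cells.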
